A study of Homo sapiens with 16 samples.

Results

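The genes described here encode proteins that make ribosomes in the nucleolus, and their signals were followed in a leukaemia cell line with and without a glucocorticoid. The list held 52 genes chosen by what their products do, and 49 of them were measured, out of 18132 genes tested. Earlier results of these data were known when the list was chosen, so its shares set against those of all genes are descriptive. Each gene was read from the brightest of the probe sets that name it and no other gene. EBNA1BP2, DDX18 and GNL3 were listed but not measured, so no signals are given for them. The data were 16 microarrays in 4 groups of 4, hybridised with total RNA of Nalm6 cells, an established human line of acute lymphoblastic leukaemia with a B-cell precursor phenotype. The groups were control cells left untreated, control cells given prednisolone for 24 hours, cells labelled as overexpressing active CASP1 left untreated, and the same cells given prednisolone for 24 hours. Prednisolone is a synthetic glucocorticoid. The sample labels name a form of prednisone and the protocol names prednisolone, and no dose was found in either. CASP1 encodes caspase-1, the protease of inflammasomes, and the series title concerns its cleavage of the glucocorticoid receptor. The labels do not say how CASP1 was introduced, what the control cells carry, or whether a line is a single clone. All groups grew in RPMI1640 medium with heat-inactivated serum and glutamine.

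Ribosomes are assembled in the nucleolus around rRNA transcribed by RNA polymerase I. Small nucleolar ribonucleoproteins, or snoRNPs, fold and modify the precursor rRNA, a large processome cuts out the small subunit RNA, and another set of factors builds the large subunit. Growing and dividing cells, leukaemia cells among them, make these factors at high levels, and MYC is a known activator of many of their genes.

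Values are log2 signals made with RMA, which brings all arrays to a common scale, so that total RNA per cell was not measured. Within a group, arrays correlated at 0.9853 to 0.9978 over all genes. All 15 measured B-cell precursor markers had mean signals between 6.69 and 12.75, above the median gene at 5.48, while 14 markers of T, NK, myeloid, erythroid, fibroblast and epithelial cells lay between 2.43 and 5.65. CASP1 itself ran against its label: on untreated arrays it was 4.16-fold lower in the cells labelled as overexpressing it (log2 difference -2.06, limma adjusted p = 2.3e-08), and 7 of its 9 probe sets were called lower and 0 higher. The directions below that involve the cells labelled CASP1 carry this mismatch, and the labels do not give the part of CASP1 that a construct would hold. Since nothing in the labels ties the replicates to separate cultures or days, the p-values reflect array-to-array spread, which may be technical.

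The arrays of replicate 1 stood apart from replicates 2 to 4 for these genes. In untreated cells labelled CASP1, replicate 1 lay below the other 3 arrays for 35 of 49 genes, against 28.7% of all genes, with a median deviation of -0.33. In the prednisolone groups replicate 1 lay above the other 3 arrays for 31 genes of the control line and 30 in cells labelled CASP1, against 31.5% and 36.4% of all genes. Results that rest on these arrays are given with and without them.

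**Figure D1:**
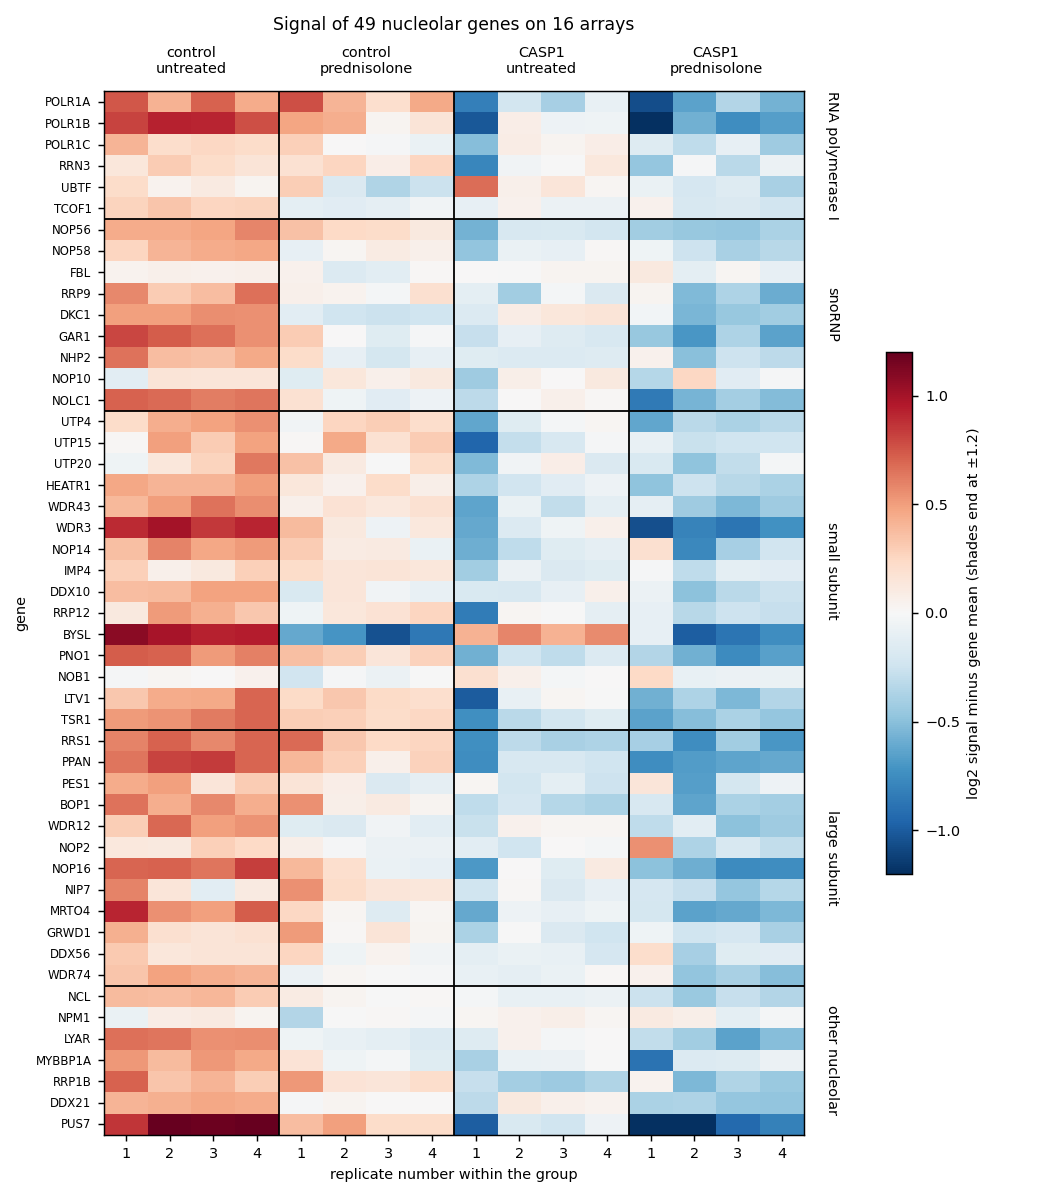
Log2 signal of the 49 measured nucleolar genes (vertical axis, grouped by role) on the 16 arrays (horizontal axis, replicates 1 to 4 in each of 4 groups), each gene centred on its own mean, with shades ending at ±1.2. The untreated control block is red for most genes, the block of prednisolone-treated cells labelled CASP1 is blue for most, and replicate 1 of the untreated cells labelled CASP1 is a darker column than its 3 neighbours.

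The order of the 4 groups was alike across most of the list. The mean signal was highest in untreated control cells for 45 of 49 genes, whereas those cells were highest for 25.2% of all genes. It was lowest in prednisolone-treated cells labelled CASP1 for 40 of 49 genes, against 21.2% of all genes. Averaged over the 49 genes, the signal was 8.67, 8.68, 8.66 and 8.69 on the untreated control arrays and 8.40, 8.31, 8.23 and 8.27 on the treated control arrays. For the cells labelled CASP1 it was 7.84, 8.14, 8.14 and 8.17 untreated and 7.94, 7.79, 7.84 and 7.84 with prednisolone. All control arrays thus lay above all arrays of cells labelled CASP1, and all treated control arrays lay below all untreated control arrays. In cells labelled CASP1 the treated and untreated arrays overlapped in this average through replicate 1, which was low untreated and high treated. Signals of different probe sets do not compare amounts of RNA between genes. NPM1 (13.13), NCL (11.98) and FBL (11.44) had mean signals near the top of the range, which ended at 14.28. UTP20 (4.70) was the only gene of the list below the median gene. Whether signal level limited a difference was not tested. NCL was called lower in all 4 comparisons of groups given below, and NPM1 and FBL in none.

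With prednisolone, control cells had lower signals for nucleolar genes of every role. Of the 49 genes, 23 were called lower and 0 higher at a limma adjusted p under 0.05, against 8.43% of all genes called lower and 5.73% called higher. The median log2 difference was -0.34 over the list and -0.01 over all genes, and 48 of the 49 differences were below 0, the exception being NIP7 at 0.08. For 29 genes all 4 treated arrays lay below all 4 untreated arrays, which was so for 11.8% of all genes. The share called was 6 of 9 for snoRNP proteins, 6 of 15 for small subunit factors, 5 of 12 for large subunit factors, 5 of 7 for other nucleolar proteins and 1 of 6 for RNA polymerase I transcription. The group named other nucleolar proteins holds abundant nucleolar proteins and others, with PUS7 placed in it. In RNA from whole cultures, fewer cells of a type and less RNA per cell cannot be told apart. Without the 4 arrays of replicate 1, 35 of 49 genes were called lower, among them all 23, while the share of all genes called lower was 13.1%.

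Among the RNA polymerase I genes, TCOF1, which encodes treacle, a nucleolar scaffold that binds the polymerase, was the only gene called. Its signals were 7.89, 7.95, 7.88 and 7.89 untreated and 7.50, 7.48, 7.51 and 7.58 with prednisolone, so the groups were well apart. The difference was -0.38 (SE 0.077, adjusted p = 0.0019), and it lost its call when the most variable of its 5 probe sets was used (adjusted p = 0.051). POLR1B, the second-largest subunit of the polymerase, read 8.25, 8.36, 8.35 and 8.21 untreated and 7.91, 7.87, 7.47 and 7.59 with prednisolone. Every treated array was below every untreated one, but the difference of -0.58 was not called (SE 0.21, adjusted p = 0.084). The SD was 0.074 and 0.215 in these groups and 0.507 and 0.421 in the groups of cells labelled CASP1, which share the fitted spread. In the fit over all probe sets, the other 5 POLR1B probe sets were called lower (-0.64 to -0.72, adjusted p 0.0015 to 0.025). Without the replicate 1 arrays it was called (-0.66, adjusted p = 0.00022), as were POLR1C, a subunit shared with RNA polymerase III (-0.25, adjusted p = 0.040), and UBTF, which binds the rRNA gene promoter (-0.33, adjusted p = 0.0086). RRN3, the initiation factor that brings the polymerase to that promoter, had the smallest difference of the group (-0.01, adjusted p = 0.98), and its sign turned under 4 other settings. An RRN3 probe set that also names the pseudogenes RRN3P1 and RRN3P2 was not used.

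The snoRNP proteins fall into those of box C/D particles, which guide rRNA methylation, and those of box H/ACA particles, which guide pseudouridylation. DKC1, the pseudouridine synthase dyskerin of the H/ACA particle, had signals of 10.80, 10.80, 10.86 and 10.85 untreated and 10.18, 10.07, 10.05 and 10.07 with prednisolone. The groups were far apart relative to their spread, and the fall was 1.67-fold (-0.74, SE 0.10, adjusted p = 5e-05). GAR1 and NHP2, proteins of the same particle, fell by 0.64 and 0.51 on the log2 scale (adjusted p = 0.00019 and 0.0046). NOLC1, a chaperone of both kinds of particle, read 11.20, 11.17, 11.10 and 11.13 untreated against 10.67, 10.44, 10.35 and 10.43 treated, a difference of -0.68 (SE 0.11, adjusted p = 0.00017). Its call was lost with its most variable probe set (-0.65, adjusted p = 0.061). Of the box C/D proteins, the scaffold NOP58 (-0.37, adjusted p = 0.023) and the U3 particle protein RRP9 (-0.41, adjusted p = 0.038) were called. The methyltransferase fibrillarin, FBL, was not: it read 11.49, 11.51, 11.50 and 11.51 untreated and 11.50, 11.28, 11.32 and 11.46 treated, and the groups overlapped (-0.11, adjusted p = 0.45). The small H/ACA protein NOP10 was not called either (-0.04, adjusted p = 0.93), and its difference was at or above 0 under both other scalings.

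The small subunit factors held the widest difference of the list. BYSL, or bystin, which acts in late small subunit maturation, read 8.45, 8.35, 8.29 and 8.31 in untreated control cells and 6.75, 6.66, 6.32 and 6.51 with prednisolone. The means were 8.35 ± 0.071 and 6.56 ± 0.191 (SD, n = 4 each), a 3.45-fold fall (-1.79, SE 0.15, adjusted p = 1.4e-07). This rests on a single probe set, because the other BYSL probe sets had mean signals of 2.84 and 2.86, near the bottom of the range at 1.69, and were not called. WDR3, of the early processome, read 8.60, 8.70, 8.55 and 8.62 against 8.08, 7.82, 7.64 and 7.83 with prednisolone, and the groups did not overlap. Its difference was -0.78 (SE 0.13, adjusted p = 0.00027). The helicase DDX10 (-0.47, adjusted p = 0.0025), the processome proteins HEATR1 (-0.33, adjusted p = 0.011) and WDR43 (-0.39, adjusted p = 0.029), and PNO1, the partner of the nuclease NOB1 (-0.37, adjusted p = 0.020), were also called. NOB1 itself was not (-0.09, adjusted p = 0.63). The smallest difference was that of the processome protein IMP4 (-0.03, adjusted p = 0.94), whose sign turned under both other scalings.

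Of the large subunit factors, MRTO4, which holds the place of the ribosomal stalk during assembly, read 8.07, 7.71, 7.65 and 7.88 untreated and 7.41, 7.18, 7.00 and 7.18 treated. All treated arrays lay below all untreated arrays (-0.63, SE 0.14, adjusted p = 0.0037), though the call was lost with its most variable probe set (-0.49, adjusted p = 0.10). WDR12, of the PeBoW complex that processes large subunit rRNA, fell by 0.63 (adjusted p = 0.00027), while its partners PES1 (-0.36, adjusted p = 0.10) and BOP1 (-0.34, adjusted p = 0.062) were not called. NOP16 (-0.62, adjusted p = 0.0068), PPAN (-0.49, adjusted p = 0.0060) and WDR74 (-0.43, adjusted p = 0.0066), all factors of early large subunit assembly, were called. GRWD1, a chaperone of a large subunit ribosomal protein, had a difference of -0.06 (adjusted p = 0.86). NIP7 read 9.24, 8.79, 8.52 and 8.75 untreated and 9.19, 8.86, 8.79 and 8.78 treated, with full overlap (adjusted p = 0.83).

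In the remaining group, PUS7, a stand-alone pseudouridine synthase, read 8.02, 8.42, 8.34 and 8.45 untreated against 7.53, 7.65, 7.38 and 7.38 treated. The groups did not overlap (-0.82, SE 0.17, adjusted p = 0.0030). LYAR, a nucleolar zinc finger protein, fell by 0.71 (adjusted p = 7.2e-06), the helicase DDX21 by 0.44 (adjusted p = 0.0016) and nucleolin, NCL, by 0.33 (adjusted p = 0.0030). MYBBP1A, a nucleolar binding partner of MYB, was called at -0.49 (adjusted p = 0.029), and lost its call in 6 of 16 fits with a single array left out (adjusted p 0.059 to 0.090 there). Nucleophosmin, NPM1, the brightest probe set of the list, had 13.05, 13.22, 13.24 and 13.17 untreated and 12.78, 13.13, 13.15 and 13.12 treated, and was not called (-0.12, adjusted p = 0.49).

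For every role but RNA polymerase I transcription, where TCOF1 is not shown, the promoter of the gene with the widest called fall is printed because these genes moved together with prednisolone and their start regions can be set side by side. They are the 250 bases before the transcription start from RefSeq on build GRCh38.p14, written 5′ to 3′ along the gene. Capitals mark CCGGAAG, the core recognised by ETS family factors, or its reverse complement CTTCCGG. DKC1 lies on the plus strand (chrX:154762614-154762863), BYSL on the plus strand (chr6:41921249-41921498), MRTO4 on the plus strand (chr1:19251555-19251804) and PUS7 on the minus strand (chr7:105522272-105522521).
DKC1: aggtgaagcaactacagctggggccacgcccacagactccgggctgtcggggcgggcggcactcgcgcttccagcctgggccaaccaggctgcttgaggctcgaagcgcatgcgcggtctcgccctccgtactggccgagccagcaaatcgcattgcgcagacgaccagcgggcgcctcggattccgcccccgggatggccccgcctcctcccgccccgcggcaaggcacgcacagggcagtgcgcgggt
BYSL: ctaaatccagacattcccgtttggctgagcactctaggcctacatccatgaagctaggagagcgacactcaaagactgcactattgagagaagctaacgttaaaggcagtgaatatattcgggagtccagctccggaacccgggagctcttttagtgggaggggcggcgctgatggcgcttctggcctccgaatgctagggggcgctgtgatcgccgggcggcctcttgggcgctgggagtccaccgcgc
MRTO4: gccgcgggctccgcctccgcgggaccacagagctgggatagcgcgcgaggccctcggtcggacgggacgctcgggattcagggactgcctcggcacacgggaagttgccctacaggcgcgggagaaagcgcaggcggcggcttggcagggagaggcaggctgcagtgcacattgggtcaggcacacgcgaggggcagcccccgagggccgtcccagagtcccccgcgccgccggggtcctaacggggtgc
PUS7: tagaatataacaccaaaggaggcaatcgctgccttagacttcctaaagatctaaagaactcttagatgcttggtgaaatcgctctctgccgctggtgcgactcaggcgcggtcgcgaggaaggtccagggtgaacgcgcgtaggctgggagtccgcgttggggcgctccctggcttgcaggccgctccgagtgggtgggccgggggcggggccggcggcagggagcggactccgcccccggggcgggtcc
None of these 4 holds CCGGAAG on either strand, nor CACGTG, the palindromic E-box that MYC can bind. WDR3 (chr1:117929489-117929738, plus strand) and NOP16 (chr5:176388599-176388848, minus strand) are called genes with matches, and were picked to show them after the motif counts were seen.
WDR3: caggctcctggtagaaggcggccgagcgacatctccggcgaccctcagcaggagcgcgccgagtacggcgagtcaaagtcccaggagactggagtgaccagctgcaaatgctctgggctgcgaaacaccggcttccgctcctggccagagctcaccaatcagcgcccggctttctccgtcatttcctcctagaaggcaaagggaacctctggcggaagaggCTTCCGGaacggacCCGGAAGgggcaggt
NOP16: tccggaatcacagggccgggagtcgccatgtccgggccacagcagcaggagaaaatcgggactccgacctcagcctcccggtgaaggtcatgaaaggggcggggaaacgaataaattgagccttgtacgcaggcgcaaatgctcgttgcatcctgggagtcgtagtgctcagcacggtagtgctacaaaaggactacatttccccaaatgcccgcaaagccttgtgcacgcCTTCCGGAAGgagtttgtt
In WDR3 the matches begin 29 and 15 bases before the start and lie on opposite strands, and in NOP16 a match on each strand overlaps the other in a single run.

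Promoters were found for 44 of the 52 listed genes. CCGGAAG on either strand was present for 19 of the 44 (43.2%), against 14.3% of 14425 tested genes and 10.2% of all 27305 genes in the table. CACGTG was present for 7 of the 44 (15.9%), against 9.82% of tested genes. CCAAT on either strand was present for 19 genes (43.2%, against 40.5% of tested genes), and TATAAA on either strand was found for 2 genes (4.55% against 11.5%). Median GC content of these windows was 63.0% for the list and 62.4% for tested genes. Of the genes called lower with prednisolone in control cells 7 of 20 held CCGGAAG, and of those not called 11 of 22 held it. A match is a description of the letters and no measure of binding.

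**Figure D2:**
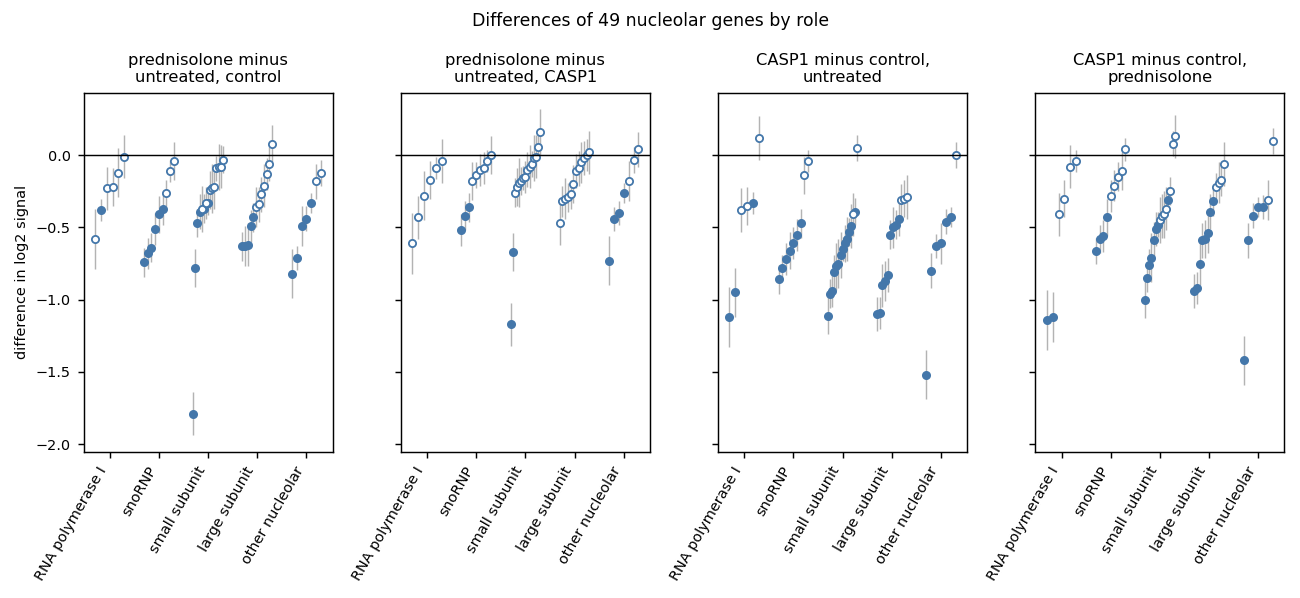
Log2 difference of each of the 49 genes (vertical axis) by role (horizontal axis) in 4 comparisons, with filled points called at an adjusted p under 0.05, open points not called, and bars of ±1 SE. Every filled point lies below 0, the lowest is BYSL with prednisolone in control cells at -1.79, and the comparison of the untreated lines has the most filled points (38).

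In cells labelled CASP1, the genes called lower with prednisolone were of the small subunit, snoRNP and other nucleolar groups. The roles without a call had median differences of -0.23 (RNA polymerase I genes) and -0.16 (large subunit factors). The medians were -0.15 for small subunit factors, -0.14 for snoRNP proteins and -0.26 for other nucleolar proteins. Here 9 of the 49 genes were called lower and 0 higher, against 3.35% of all genes called lower and 2.99% called higher. The median difference was -0.17, against 0.02 over all genes, with 44 of 49 below 0. The treated arrays lay wholly below the untreated ones for 8 genes, a pattern shown by 6.56% of all genes. All 9 genes called here were also called in control cells, with no arrays shared between the comparisons. They were 39.1% of the 23 genes called there, where the 450 genes called lower in both lines over the whole table were 29.4% of those called in control cells and 74.0% of those called in cells labelled CASP1.

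This response turned on the replicate 1 arrays. Within replicate 1 the median difference between the treated and the untreated array was 0.12, and 15 of 49 genes were below 0. Between the means of replicates 2 to 4 it was -0.28, and 49 of 49 were below 0. In control cells the same medians were -0.27 and -0.38, with 41 and 48 genes below 0. Without the 4 arrays of replicate 1, 24 genes were called lower in cells labelled CASP1, all 9 among them, while 6.15% of all genes were. Conversely, 5 genes were called when untreated replicate 2, 3 or 4 of cells labelled CASP1 was left out, where 2.49%, 2.36% and 2.04% of all genes were called lower. When only these 2 groups were fitted 4 genes were called, against 1.79% of all genes, and DKC1 (adjusted p = 0.12), GAR1 (0.083), PUS7 (0.088) and DDX21 (0.078) were among those that lost their call.

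The genes called in cells labelled CASP1 were again led by BYSL. It read 7.78, 7.95, 7.78 and 7.93 untreated and 7.27, 6.38, 6.49 and 6.62 with prednisolone, with replicate 1 the least changed. Even so the groups were apart, and the fall was 2.25-fold (-1.17, SE 0.15, adjusted p = 5e-05). WDR3 read 7.09, 7.54, 7.65 and 7.76 untreated and 6.65, 6.90, 6.83 and 6.98 treated (-0.67, SE 0.13, adjusted p = 0.0028). Averaging its 2 probe sets ended the call (-0.38, adjusted p = 0.058), the dimmer of which had a mean signal of 3.61. Of the snoRNP proteins, NOLC1 read 10.18, 10.49, 10.55 and 10.50 against 9.64, 9.93, 10.08 and 9.97, with the treated arrays all lower (-0.52, SE 0.11, adjusted p = 0.0049), and again lost its call with its most variable probe set (adjusted p = 0.22). DKC1 read 10.14, 10.39, 10.44 and 10.46 against 10.27, 9.76, 9.85 and 9.89: in replicate 1 the treated array was the higher, and the groups overlapped. DKC1 was called at -0.42 (adjusted p = 0.018) but lost the call in 6 of 16 fits with a single array left out (0.050 to 0.065). GAR1, at -0.36 (adjusted p = 0.040), lost it in 9 of those fits and under 5 other alternatives.

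Of the other nucleolar proteins, LYAR (-0.44, adjusted p = 0.0025), DDX21 (-0.40, adjusted p = 0.0080), NCL (-0.26, adjusted p = 0.033) and PUS7 (-0.73, adjusted p = 0.016) were called. The LYAR arrays read 9.08, 9.28, 9.21 and 9.24 untreated and 8.94, 8.81, 8.59 and 8.72 treated, and did not overlap. PUS7 read 6.17, 6.98, 6.92 and 7.10 against 5.77, 5.89, 6.23 and 6.35, where the untreated array of replicate 1 fell among the treated ones, and its call was lost when untreated replicate 2, 3 or 4 was left out (adjusted p 0.057, 0.054 and 0.067). In the fit over all probe sets, probe sets not chosen were called lower for POLR1B (adjusted p = 0.045 and 0.046), PNO1 (0.016 and 0.0062), NOP16 (0.027) and WDR12 (0.015). On the chosen probe sets, none of the 6 RNA polymerase I genes and none of the 12 large subunit factors was called. Without the replicate 1 arrays, 3 and 5 of them were: POLR1B (-0.65, adjusted p = 0.0006), POLR1C (-0.34, adjusted p = 0.014) and UBTF (-0.33, adjusted p = 0.017), and NOP16 (-0.69), MRTO4 (-0.53), PPAN (-0.43), WDR74 (-0.40) and WDR12 (-0.38), the last with the highest adjusted p of the 5 at 0.017. In treated cells labelled CASP1 the summed signal of the 15 B-cell precursor markers ran from 153.29 to 159.06, below the 159.25 to 160.71 of the untreated cells. The lowest sum was that of replicate 1, where the mean over the markers was 10.22, against 10.53, 10.60 and 10.56 on replicates 2 to 4. Of the 15 markers 3 were called lower and 0 higher, against 3.35% and 2.99% of all genes. The part of this marker difference in the result was not tested.

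**Figure D3:**
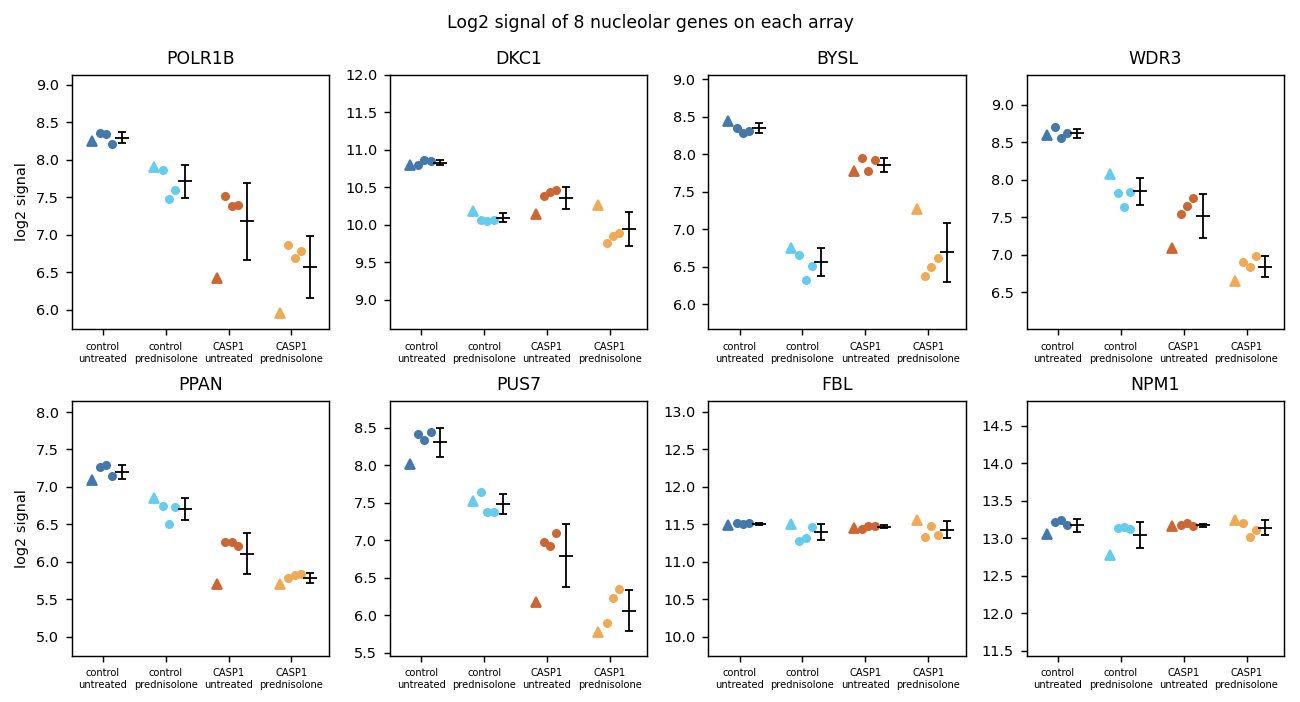
Log2 signal (vertical axis, of the same width in every panel) of POLR1B, DKC1, BYSL, WDR3, PPAN, PUS7, FBL and NPM1 on each array, by group (horizontal axis), with triangles for replicate 1, circles for replicates 2 to 4, and black marks for the mean ± SD of 4 arrays. BYSL separates by treatment (8.35 to 6.56 in control cells), PPAN separates by line (7.20 and 6.71 against 6.11 and 5.78), and the group means of FBL (11.39 to 11.50) and NPM1 (13.05 to 13.18) lie close together.

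The response to prednisolone was not shown to differ between the lines for any of the 49 genes. In the interaction, which subtracts the response of control cells from that of cells labelled CASP1, limma called 0 of 49 genes, against 0.888% of all genes called in either direction. At an unadjusted p under 0.05 there were 6 of 49, and 1871 of all 18132 genes. The differences were above 0 for 43 genes, with a median of 0.16 against 0.03 over all genes, and ran from -0.28 for NIP7 to 0.62 for BYSL. BYSL fell by 1.79 in control cells and by 1.17 in the line labelled CASP1, and the difference of 0.62 (SE 0.21) had an unadjusted p of 0.009136 and an adjusted p of 0.25. The other 5 were NHP2 (0.41), WDR12 (0.33), DKC1 (0.32), TCOF1 (0.29) and LYAR (0.27), with adjusted p of 0.31 to 0.45. With replicate 1 left out the median was 0.08, and a single gene was called, MYBBP1A at 0.45 (adjusted p = 0.019). Of all genes 2.72% were called higher and 1.29% lower in that fit. The treated replicate 1 array of cells labelled CASP1 read 5.08 for MYBBP1A, and the other 3 read 5.80, 5.81 and 5.90.

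Most of the list was lower in untreated cells labelled CASP1 than in untreated control cells. In this comparison 38 of 49 genes were called lower and 0 higher, against 8.2% and 5.87% of all genes. The median difference was -0.61, against 0.01 over all genes, and 46 genes were below 0. For 43 genes the 4 arrays of the cells labelled CASP1 all lay below the 4 control arrays, as 11.8% of all genes did. By role, 13 of 15 small subunit factors, 9 of 12 large subunit factors, 7 of 9 snoRNP proteins, 6 of 7 other nucleolar proteins and 3 of 6 RNA polymerase I genes were lower. This comparison and that of prednisolone in control cells use the same 4 untreated control arrays, which were the highest group for 45 genes, so the values of both comparisons are not independent. Without replicate 1 the count was 40 of 49, all 38 among them, with a median of -0.54 and 12.8% of all genes called lower. Leaving out the single untreated replicate 1 array of cells labelled CASP1 moved the median to -0.50.

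POLR1A, the largest subunit of RNA polymerase I, read 7.17, 6.84, 7.13 and 6.87 in the control line and 5.61, 6.21, 6.03 and 6.34 in the line labelled CASP1, both untreated. It was 1.93-fold lower (-0.95, SE 0.17, adjusted p = 0.0007), although with prednisolone it had not been called in either line. POLR1B read 6.42, 7.52, 7.38 and 7.39 in cells labelled CASP1, with replicate 1 far below the others, against 8.21 to 8.36 in control cells (-1.12, SE 0.21, adjusted p = 0.0016). TCOF1 differed by -0.33 (adjusted p = 0.0071). RRN3 (-0.38, adjusted p = 0.12) and POLR1C (-0.35, adjusted p = 0.079) were apart on all arrays but not called, though RRN3 was with the replicate number as a block (adjusted p = 0.047), as was the large subunit factor DDX56 (-0.31, adjusted p = 0.072 without the block and 0.025 with it). UBTF had a difference of 0.12 (adjusted p = 0.71).

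Among snoRNP proteins, GAR1 read 8.76, 8.69, 8.62 and 8.51 in the control line and 7.69, 7.86, 7.81 and 7.77 in the line labelled CASP1, a difference of -0.86 (SE 0.10, adjusted p = 1.7e-05). The box C/D scaffold NOP56 was lower by a similar amount (-0.78, adjusted p = 1.3e-05), as was NOLC1 (-0.72, adjusted p = 0.00015). FBL and NOP10 were not called (-0.04 and -0.14, adjusted p = 0.84 and 0.60). Of the small subunit factors, WDR3 (-1.11, adjusted p = 1.3e-05), PNO1 (-0.96, adjusted p = 7e-06) and TSR1, a late maturation factor (-0.94, adjusted p = 1.3e-05), led. For PNO1 the control arrays read 8.16, 8.14, 7.95 and 8.04 and those of cells labelled CASP1 6.86, 7.20, 7.13 and 7.27, with a wide gap between the groups. BYSL, which had the widest fall with prednisolone, differed less between the untreated lines (-0.49, adjusted p = 0.035).

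For the large subunit, RRS1, which helps build the central protuberance, read 8.69, 8.80, 8.67 and 8.79 in the control line and 7.36, 7.78, 7.70 and 7.72 in the line labelled CASP1. It was 2.14-fold lower (-1.10, SE 0.12, adjusted p = 6.7e-06). PPAN read 7.09, 7.26, 7.29 and 7.15 against 5.70, 6.26, 6.26 and 6.21, a difference of -1.09 (SE 0.11, adjusted p = 5.5e-06). NOP16 differed by -0.90 (adjusted p = 0.00039) and all members of the PeBoW complex were called: PES1 at -0.50 (adjusted p = 0.022), BOP1 at -0.83 (adjusted p = 8.2e-05) and WDR12 at -0.55 (adjusted p = 0.0013). PUS7 had the widest difference of the list between the lines, 8.02, 8.42, 8.34 and 8.45 against 6.17, 6.98, 6.92 and 7.10, or 2.86-fold (-1.52, SE 0.17, adjusted p = 1.4e-05). RRP1B, a nucleolar protein of large subunit processing, was called on its brighter probe set (-0.80, adjusted p = 0.00025). Its dimmer probe set, with a mean signal of 4.71, had a difference of 0.34 (adjusted p = 0.36), and the mean of both was not called (-0.23, adjusted p = 0.38). NPM1 had a difference of 0.00 (adjusted p = 0.99).

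With prednisolone in both lines, the nucleolar genes were again lower in cells labelled CASP1. Here 27 of 49 were called lower and 0 higher, against 8.52% and 7.88% of all genes, with a median of -0.41 against 0.04 over all genes and 45 genes below 0. The groups were apart for 30 genes, against 9.56% of all genes. Of the 27 genes, 26 had been called between the untreated lines, on other arrays, which is 96.3% of these and 68.4% of those 38. Both comparisons use the same fitted spread of each gene, so their tests are not independent. Over all genes 863 were called lower in both, 55.9% and 58.0% of the respective calls. NIP7 was the gene called with prednisolone alone (-0.58, adjusted p = 0.0047, against -0.30, adjusted p = 0.15, in untreated cells), and the difference between those values is its interaction of -0.28 (adjusted p = 0.68). Without replicate 1, 35 of 49 were called lower, all 27 among them, and 10.8% of all genes.

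The widest differences between the treated lines were those of PUS7, POLR1B, POLR1A and WDR3. PUS7 read 7.53, 7.65, 7.38 and 7.38 in treated control cells and 5.77, 5.89, 6.23 and 6.35 in treated cells labelled CASP1, a 2.68-fold difference (-1.42, SE 0.17, adjusted p = 2.4e-05). POLR1B read 7.91, 7.87, 7.47 and 7.59 against 5.95, 6.86, 6.69 and 6.78 (-1.14, SE 0.21, adjusted p = 0.0012), and POLR1A 7.20, 6.83, 6.63 and 6.88 against 5.36, 5.78, 6.07 and 5.86 (-1.12, SE 0.17, adjusted p = 0.00014). No array of these groups overlapped for the 3 genes. WDR3 differed by -1.00 (adjusted p = 3.1e-05), RRS1 by -0.94 (adjusted p = 2.7e-05), PPAN by -0.92 (adjusted p = 2.6e-05), PNO1 by -0.85 (adjusted p = 2.2e-05), TSR1 by -0.76 (adjusted p = 9.4e-05) and NOP16 by -0.75 (adjusted p = 0.0016). The snoRNP proteins NOP56 (-0.66, adjusted p = 6.2e-05), GAR1 (-0.58, adjusted p = 0.00068) and NOLC1 (-0.56, adjusted p = 0.0012) were called, GAR1 not so with its most variable probe set (-0.36, adjusted p = 0.16), whereas DKC1 (-0.15, adjusted p = 0.38) and NHP2 (-0.21, adjusted p = 0.25), called between the untreated lines, were not. RRP1B (-0.59, adjusted p = 0.0033) again lost its call when its probe sets were averaged (-0.04, adjusted p = 0.90). BYSL had means of 6.56 ± 0.191 and 6.69 ± 0.402 (SD, n = 4 each) in the treated lines, and the difference of 0.13 was not called. Treated cells labelled CASP1 also had a higher summed signal of the 14 markers of other cell types (54.19 to 55.49 against 52.87 to 53.18), with EPCAM (0.43) and ITGAM (0.37) called. Their mean signals were low, at 2.43 and 3.31, against 5.48 for the median gene and 1.69 for the lowest value. Of the 15 B-cell precursor markers, 5 were called lower and 0 higher between the treated lines (median -0.27), against 8.52% of all genes called lower. The part of these marker differences in the result was not tested.

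Across the 4 comparisons of groups, 7 genes were called lower in every one: GAR1, NOLC1, WDR3, NCL, LYAR, DDX21 and PUS7. A further 8 were called in all but prednisolone in cells labelled CASP1, namely RRP9, HEATR1, WDR43, PNO1, PPAN, NOP16, MRTO4 and WDR74. The 4 comparisons share groups and the fitted spread of each gene, so their calls are not independent. The shares of all genes called in every comparison, in all but that one or in none were not counted. NCL is an example of small differences with little spread: its arrays read 12.36, 12.35, 12.38 and 12.28 in untreated control cells, 12.08, 12.01, 11.97 and 11.99 in treated control cells, 11.95, 11.89, 11.89 and 11.91 in cells labelled CASP1 left untreated, and 11.72, 11.53, 11.70 and 11.63 in treated ones. Each group lay below the one named before it with no overlap. On the chosen probe sets and all 16 arrays, 10 genes were called in none: POLR1C, RRN3, UBTF, FBL, NOP10, UTP20, NOB1, NOP2, DDX56 and NPM1. For 3 of the 10 another probe set was called lower between the lines, with 1 for POLR1C and 2 for RRN3 untreated, and 1 for RRN3 and 3 for UBTF with prednisolone. Without the replicate 1 arrays 5 of them, POLR1C, RRN3, UBTF, NOP2 and DDX56, were called in 1 or more comparisons.

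All 122 probe sets that name a single gene of the list gave the same direction wherever they were called. With prednisolone 51 were lower in the control line and 18 in cells labelled CASP1. The 18 leave out a GAR1 probe set whose adjusted p, under 0.05, rounds to 0.05. Between the lines 85 were lower untreated and 64 with prednisolone, with 0 higher in all 4 comparisons. Shares over all probe sets were not counted. On 1 probe set per gene, 8.43%, 3.35%, 8.2% and 8.52% of all genes were called lower, in that order. For 13 genes there was 1 probe set and for 36 several. Of the chosen probe sets 9 carry the suffix x and 10 the suffix s, among them those of POLR1B, GAR1, NOP56, WDR3 and RRP1B, which marks probes that may also match related sequences.

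The rest of the ribosome biogenesis pathway was read from 125 other genes. With prednisolone 35 of them were called lower and 2 higher in control cells (median -0.20), against 8.43% and 5.73% of all genes. In cells labelled CASP1 12 were lower and 0 higher (median -0.05), against 3.35% and 2.99%. Between the untreated lines 56 were lower and 3 higher (median -0.30), against 8.2% and 5.87%, and between the treated lines 38 were lower and 5 higher (median -0.20), against 8.52% and 7.88%. In the interaction limma called 0 of the 125, with 17 at an unadjusted p under 0.05, as were 1871 of all 18132 genes. TTF1, which terminates RNA polymerase I transcription, fell by 0.89 with prednisolone in control cells (adjusted p = 2.1e-06), RUVBL1, a helicase of snoRNP assembly, by 0.75 (adjusted p = 3.9e-05), and EXOSC5, a subunit of the RNA exosome that trims rRNA, by 0.82 (adjusted p = 4.3e-05). Between the untreated lines the small subunit factors RRP7A (-1.15, adjusted p = 8.6e-06) and DCAF13 (-1.08, adjusted p = 1.5e-05) led. The exosome subunit EXOSC8 ran the other way between the treated lines (0.54, adjusted p = 0.0034).

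The cytosolic ribosomal protein genes encode the proteins that these factors assemble. Of 65 measured, 0 were called lower and 1 higher with prednisolone in control cells, against 8.43% and 5.73% of all genes, with 2 at an unadjusted p under 0.05 in limma. In cells labelled CASP1 0 were called either way, against 3.35% lower and 2.99% higher, and limma had 1 at an unadjusted p under 0.05. The medians were 0.01 and 0.03. Between the lines 2 were lower and 0 higher, untreated and with prednisolone alike, against 8.2% and 8.52% of all genes lower, with medians of 0.01 and 0.03. Both were RPL27A (-0.96 and -1.25, adjusted p = 0.00053 and 4e-05) and RPL35A (-0.74 and -0.38, adjusted p = 8.5e-05 and 0.015). Signals of this list averaged 13.27 to 13.37, near the top of the range, and 13 of the 78 genes were not measured on probe sets that name a single gene.

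**Figure D4:**
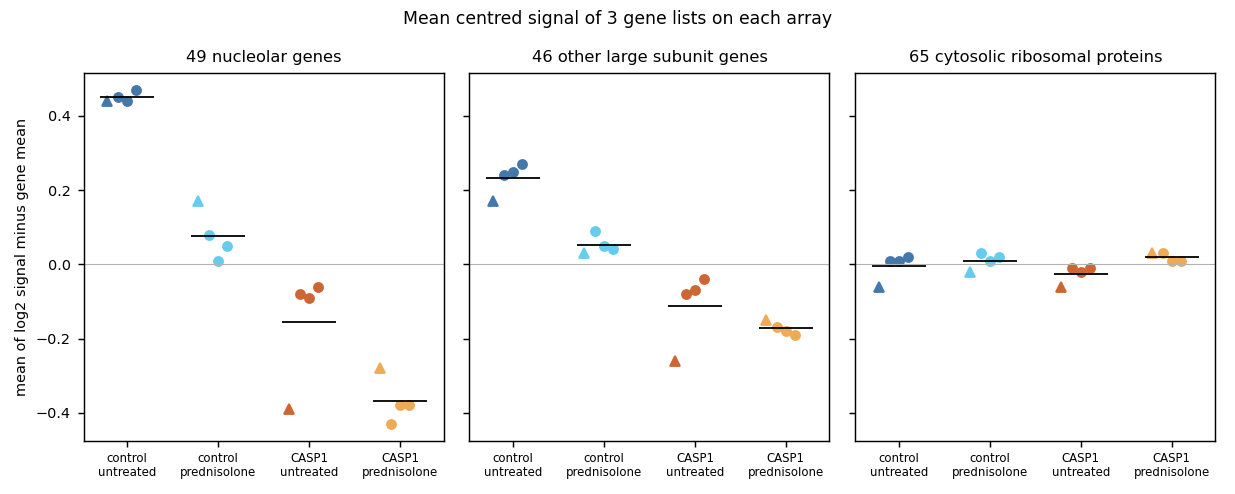
Mean over each list of the log2 signal minus the gene's own mean (vertical axis) on each array, by group (horizontal axis), for the 49 nucleolar genes, 46 other large subunit genes and 65 cytosolic ribosomal proteins, with triangles for replicate 1, circles for replicates 2 to 4 and lines for group means. The nucleolar genes range from 0.47 on an untreated control array to -0.43 on a treated array of cells labelled CASP1, the other large subunit genes from 0.27 to -0.26, and the ribosomal proteins from -0.06 to 0.03.

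MYC, the transcription factor known to drive many of these genes, fell with prednisolone in both lines. Its arrays read 12.30, 12.26, 12.26 and 12.18 in untreated control cells and 11.32, 11.09, 11.04 and 11.07 with prednisolone (-1.12, SE 0.086, adjusted p = 5.1e-08). In cells labelled CASP1 they read 11.75, 11.92, 11.82 and 11.93 and then 10.75, 10.84, 11.03 and 10.94 (-0.96, adjusted p = 7e-07). The groups did not overlap in either line, and the interaction was 0.16 (adjusted p = 0.74). Between the lines MYC was lower in untreated cells labelled CASP1 (-0.40, adjusted p = 0.0039) and was not called with prednisolone (-0.24, adjusted p = 0.065). Of 10 genes of MYC and its partners, 1 was called lower and 2 higher with prednisolone in control cells, against 8.43% and 5.73% of all genes. In cells labelled CASP1, 2 were lower and 1 higher, against 3.35% and 2.99%. Between the untreated lines 1 was lower and 3 higher, against 8.2% and 5.87%. Between the treated lines 2 were lower and 2 higher, against 8.52% and 7.88%. On a list of 10 a single called gene is 10%, near several of these shares. Those called higher included members of the MXD family, which compete with MYC for its partner MAX. MXD4 rose with prednisolone in control cells (1.43, adjusted p = 1.8e-06). MXD1 (1.04 and 1.16) and MXD3 (0.72 and 0.76) were higher in cells labelled CASP1 without and with prednisolone, each with an adjusted p of at most 0.00024. The rise of MXD4 was smaller in cells labelled CASP1 (interaction -0.99, adjusted p = 0.029). Whether MYC or its partners drove the nucleolar differences was not tested. NR3C1, the glucocorticoid receptor gene, rose with prednisolone by 1.24 in the control line and 0.85 in cells labelled CASP1 (adjusted p = 7.3e-08 and 1.7e-05). In both groups of cells labelled CASP1 replicate 1 had the lowest MYC signal, while its mean over the 49 nucleolar genes was the lowest of the untreated arrays (7.84) and the highest of the treated ones (7.94).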

How the data were processed

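The deposited table holds log2 probe set signals from 16 Affymetrix PrimeView arrays, for which the submitters' processing notes name RMA. Which software, version and probe set definition the authors used is not stated there. Array medians ran from 4.85 to 4.93. For arrays, their number limits the precision. Of 49395 probe sets, 44988 named 1 gene in the platform annotation, 1832 several and 2473 none, and 102 were controls. Entrez identifiers of 99.94% were in the RefSeq gene table, and 0 symbols were updated.

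The brightest probe set naming a single gene stood for each of 18132 genes. limma 3.58.1 under R 4.3.3 fitted 4 group means to all arrays (12 residual and 5.46 prior degrees of freedom, median residual SD 0.167), with two-sided moderated tests. Each comparison's p-values had the Benjamini-Hochberg adjustment over all genes, and a value under 0.05 was a call. limma gave every adjusted p printed. Scripts were tested on simulated data. The genes of the list, the other lists and the rules were chosen with earlier results of these data known. By rule the text names, in each comparison and role, up to 3 called genes with the widest difference, the uncalled gene with the smallest, up to 2 called genes of each other list, and any gene for its group means, probe sets or sequence. The alternatives were 2 other scalings, a filter on dim genes, 2 other choices of probe set, another variance model, only the groups compared, a replicate block, the replicate 1 arrays left out, and each array left out. Deviations of same-numbered arrays of the untreated lines correlated at 0.15 to 0.43. The replicate number was thus read as pairing these groups, from the data and not from the labels. The main fit had no replicate block, so its p-values are unpaired, and the block was used only as an alternative. Promoters are from RefSeq (GRCh38.p14).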

Additional observations from a re-analysis of the deposited data

Results flagged for a closer look

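In 19 of 196 groups of 4 arrays, an array lay farther from its 3 neighbours than Dixon's 95% value allows, where chance gives about 1 in 20 groups. Of these, 17 were arrays of replicate 1.

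In untreated cells labelled CASP1, replicate 1 was low for 9 genes. It read 6.42 for POLR1B against 7.38 to 7.52 on the other 3 arrays, 6.49 for POLR1C (7.03 to 7.09), 9.77 for NOP56 (10.12 to 10.16) and 10.18 for NOLC1 (10.49 to 10.55). It read 6.27 for RRP12 (7.00 to 7.13), 6.10 for LTV1 (7.01 to 7.12) and 5.70 for PPAN (6.21 to 6.26). For WDR12 it read 8.27 (8.56 to 8.59) and for MRTO4 6.54 (7.06 to 7.11). All 9 genes except POLR1C were called lower between the untreated lines.

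In treated cells labelled CASP1, replicate 1 was high for UTP15 at 6.19 (6.01 to 6.04) and for NOB1 at 10.80 (10.48 to 10.50), and low for MYBBP1A at 5.08 (5.80 to 5.90). In treated control cells, replicate 1 was high for BOP1 at 8.87 (8.36 to 8.43) and low for NPM1 at 12.78 (13.12 to 13.15), and replicate 2 was high for DDX21 at 10.78 (10.74 to 10.75). In untreated control cells, replicate 1 was low for NOP10 at 9.81 (10.08 to 10.09) and high for GRWD1 at 7.23 (6.96 to 7.00) and DDX56 at 8.31 (8.13 to 8.15), and replicate 4 was high for NOP56 at 10.93 (10.79 to 10.81).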

How the results depend on the processing

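In all 4 comparisons of groups, 0 genes of the list were called higher under every alternative run, and the median stayed below 0. Without the 4 arrays of replicate 1, the genes called lower with prednisolone numbered 35 for the control line and 24 for the line labelled CASP1, against 13.1% and 6.15% of all genes. The median in the latter was -0.28, and 1 gene was called in the interaction. The cause was not tested. Fitting only the groups compared left 4 genes called in cells labelled CASP1, against 1.79% of all genes, on fewer arrays. With each array left out in turn, the count there ran from 5 to 13, and the share of all genes called lower from 2.04% to 3.72%. The median between the untreated lines ran from -0.63 to -0.50. Differences near 0 turned sign with prednisolone in control cells: RRN3 was at 0.03 after quantile normalization and after centring on the 75th percentile, 0.05 with the mean of its probe sets and 0.08 with the most variable probe set, NOP10 at 0.02 and 0.00 and IMP4 at 0.02 and 0.01 under those scalings, and NPM1 at 0.03 with its most variable probe set. With single arrays left out, RRN3 ran from -0.04 to 0.02, NOP10 from -0.11 to 0.02, IMP4 from -0.07 to 0.01 and GRWD1 from -0.17 to 0.00. The median of all genes moved by less than 0.1 under either scaling. Deviations of same-numbered arrays correlated at -0.12 to 0.51 over all pairs of groups, at 0.19 to 0.51 for replicate 1 and at -0.12 to 0.26 for replicates 2 to 4, and 7 of 16 arrays were closest to their own number. All 4 pairs exceeded 0.1 between the untreated lines, and not all did in any other pair of groups. With the replicate block 26, 10, 40 and 30 genes were called lower with prednisolone in the control line, in the line labelled CASP1, and between the untreated and the treated lines, and 0 in the interaction. Of all genes 10.4%, 4.65%, 10.1% and 10.5% were then called lower in the 4 comparisons of groups. In the main fit those shares were 8.43%, 3.35%, 8.2% and 8.52%. The block took the call from no gene of the list. With 4 arrays a group and 1 spread per gene fitted over all groups, the chosen POLR1B probe set was not called with prednisolone in control cells (-0.58).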
